A study of Arabidopsis thaliana with 6 samples.

Results

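The 10 genes described here make indole glucosinolates, the tryptophan-derived defence compounds of cabbage relatives. They were chosen by locus as the main regulators and enzymes of that route. They are 10 of the 38150 genes listed in each library of Arabidopsis thaliana RNA sequencing, and all 10 passed the filter on low values. Plants of the nid1 knockout mutant, in 3 libraries, were set against the Col-0 wild type (WT), in 3 libraries. All 6 came from whole 9-day-old seedlings kept at 23 °C and 60% relative humidity in cycles of 16 h light and 8 h dark. Both genotypes had grown on half-strength medium with 20 mM nitrate, were then starved of nitrate and finally received 0.05 mM nitrate for 6 h. The labels give neither the nid1 allele nor the locus it removes, so the loss of its transcript was not checked. They do not say whether the 3 libraries of a genotype came from separate cultures, so every p-value refers to library-to-library spread that may be technical.

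Indole glucosinolates are stored in intact tissue and are cleaved by thioglucosidases when cells are damaged or attacked. Synthesis starts when CYP79B2 and CYP79B3 turn tryptophan into indole-3-acetaldoxime, an intermediate that also feeds the phytoalexin camalexin and auxin. CYP83B1 oxidises the aldoxime, SUR1 splits off the thiol, UGT74B1 adds glucose and SOT16 adds sulfate. CYP81F2 then hydroxylates the indole ring, and the related transcription factors MYB34, MYB51 and MYB122 switch the route on.

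Summed FPKM of all genes lay between 740626 and 804310 in nid1 and between 730062 and 964273 in WT. The highest sum was that of WT replicate 2, which stood apart on the first principal component.

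None of the 10 genes differed between nid1 and WT beyond the spread between libraries. Values are FPKM, fragments scaled to transcript length and library size, as the authors deposited them. limma, a linear model fitted across 20533 genes on log2(FPKM + 1), called 0 of the 10 at a Benjamini-Hochberg adjusted p under 0.05, and 0 had an unadjusted p under 0.05. Across all tested genes 0.0877% were called, 0.0633% as higher and 0.0244% as lower in nid1, and 6.21% had an unadjusted p under 0.05. The groups overlapped in all 10 genes, while 10.3% of all tested genes had groups that did not overlap. The fitted log2 fold changes of nid1 over WT ran from 0.028 to 0.18, with a median of 0.087 against 0.00022 over all tested genes. All 10 lay above 0, as did 50.0% of all tested genes. The 10 genes were measured in the same 6 libraries and are not independent of one another. Leaving out nid1 replicate 2 or WT replicate 3 left 7 of the 10 above 0. Taking the 95% intervals of all 10 genes together, the limits were 0.729-fold and 1.49-fold of WT on the FPKM + 1 scale. A p that misses the threshold does not show equal levels. These limits are the outermost of the 10 intervals. They are not the smallest difference that limma could call with 3 libraries a genotype. Leaving out 1 library at a time moved the median between 0.040 (nid1 replicate 2 left out) and 0.14 (WT replicate 2 left out), with 0 called each time. In whole seedlings fewer cells of a type and less RNA per cell cannot be told apart.

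**Figure D1:**
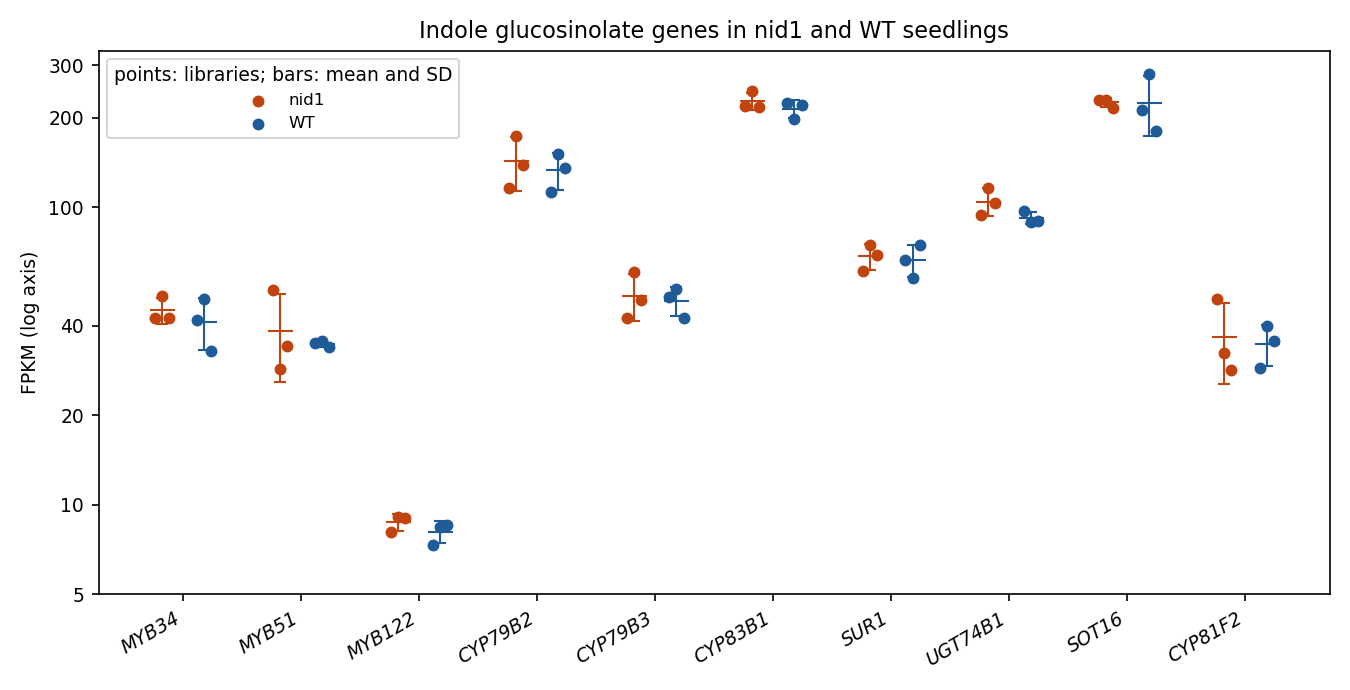
FPKM (log axis) of the 10 genes in the 3 nid1 libraries (left of each pair) and the 3 WT libraries (right), with mean and SD. The levels span from 7.34 FPKM in MYB122 to 280.2 FPKM in SOT16, and the genotypes overlap in every gene.

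Levels over all 6 libraries differed far more between genes than between genotypes. SOT16 and CYP83B1 stood highest, at 225 ± 32.5 and 221 ± 15.04 FPKM (SD, n = 6), and their order changed from library to library. CYP79B2 followed at 138 ± 22.6 FPKM and UGT74B1 at 98.4 ± 10.13 FPKM, and CYP79B2 was above UGT74B1 in 6 of 6 libraries. SUR1 averaged 67.4 ± 6.88 FPKM and CYP79B3 49.5 ± 6.80 FPKM, with SUR1 the higher in 6 of 6 libraries. MYB34 at 43.2 ± 6.26 FPKM, MYB51 at 36.6 ± 8.19 FPKM and CYP81F2 at 35.6 ± 7.92 FPKM had overlapping ranges and no constant order. MYB122 was lowest at 8.42 ± 0.650 FPKM. Among genes above 0 in any library, SOT16 and CYP83B1 lay between the 96.6th and 98.2nd percentile of level and MYB122 between the 52.4th and 56.1st. The size of the steps in low FPKM values put the support at roughly 280 to 390 fragments a library for MYB122 and 9420 to 13500 for CYP83B1.

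MYB34 (gene-AT5G60890, TAIR10.1 chr5:24494291-24496371, plus strand, 3 exons) was first found through altered tryptophan regulation. It measured 42.4, 50.4 and 42.3 FPKM in nid1 replicates 1, 2 and 3, against 41.8, 49.1 and 32.9 FPKM in WT replicates 1, 2 and 3. WT replicate 3 was the lowest and replicate 2 the highest in each genotype. The means were 45.0 ± 4.66 FPKM in nid1 and 41.3 ± 8.09 FPKM in WT (SD, n = 3 each), a log2 fold change of 0.14 (SE 0.17, limma adjusted p = 1.00). MYB51 (gene-AT1G18570, 3 exons), also called HIG1 for high indolic glucosinolate, measured 52.5, 28.6 and 34.1 FPKM in nid1 against 35.0, 35.5 and 33.8 FPKM in WT. Both the highest and the lowest value came from nid1, and the 3 WT values lay close together. MYB51 averaged 38.4 ± 12.5 FPKM in nid1 and 34.8 ± 0.840 FPKM in WT (log2 fold change 0.094, SE 0.21, limma adjusted p = 1.00). Without nid1 replicate 1 the log2 fold change of MYB51 was -0.15 (limma adjusted p = 1.00). MYB122 (gene-AT1G74080, 3 exons), the least expressed of the 3 regulators, measured 8.09, 9.09 and 9.02 FPKM in nid1 against 7.34, 8.42 and 8.57 FPKM in WT. The 2 highest values were nid1 libraries but nid1 replicate 1 lay below WT replicates 2 and 3 (log2 fold change 0.097, SE 0.12, limma adjusted p = 1.00).

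At the first committed step CYP79B2 (gene-AT4G39950) measured 116, 174 and 138 FPKM in nid1 replicates 1, 2 and 3 against 113, 151 and 135 FPKM in WT replicates 1, 2 and 3. Replicate 1 was the lowest and replicate 2 the highest in both genotypes. Mean levels were 143 ± 29.1 FPKM in nid1 and 133 ± 19.0 FPKM in WT (log2 fold change 0.094, SE 0.19, limma adjusted p = 1.00). Its paralog CYP79B3 (gene-AT2G22330) measured 42.4, 60.4 and 48.6 FPKM in nid1 and 49.8, 53.0 and 42.5 FPKM in WT. The highest and lowest values were both nid1 libraries, and the means were 50.5 ± 9.15 FPKM in nid1 and 48.4 ± 5.36 FPKM in WT (log2 fold change 0.049, SE 0.16, limma adjusted p = 1.00). Leaving out nid1 replicate 2 gave log2 fold changes of -0.057 for CYP79B2 and -0.086 for CYP79B3.

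CYP83B1 to SOT16 form the core structure. CYP83B1 (gene-AT4G31500, chr4:15273410-15275404, minus strand) measured 219, 245 and 218 FPKM in nid1 against 225, 198 and 221 FPKM in WT, and its coefficient of variation over the 6 libraries was 6.80%, the smallest of the 10 genes. Its highest value was nid1 replicate 2 and its lowest WT replicate 2 (log2 fold change 0.081, SE 0.13, limma adjusted p = 1.00). SUR1 (gene-AT2G20610, chr2:8877887-8880440, minus strand), whose C-S lyase serves both the indole and the aliphatic (methionine-derived) route, measured 61.1, 74.5 and 69.3 FPKM in nid1 against 66.7, 58.0 and 74.8 FPKM in WT. Both extremes of SUR1 were WT libraries (log2 fold change 0.041, SE 0.14, limma adjusted p = 1.00). The glucosyltransferase gene UGT74B1 (gene-AT1G24100, chr1:8525334-8527087, minus strand) measured 94.2, 116 and 103 FPKM in nid1 and 97.0, 89.4 and 90.1 FPKM in WT. In UGT74B1 the 2 highest values were nid1 libraries while nid1 replicate 1 lay below WT replicate 1. Its log2 fold change was 0.18 (SE 0.13, limma adjusted p = 1.00), and 0.097 to 0.25 with 1 library left out at a time. SOT16 (gene-AT1G74100, 1 exon), the desulfoglucosinolate sulfotransferase that prefers indole substrates, measured 230.2, 229.8 and 216 FPKM in nid1 against 213, 280.2 and 181 FPKM in WT. Its means were the same to 3 digits, 225 ± 7.81 FPKM in nid1 and 225 ± 50.7 FPKM in WT, while WT held both the highest and the lowest library (log2 fold change 0.028, SE 0.18, limma adjusted p = 1.00).

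CYP81F2 (gene-AT5G57220, 3 exons), the ring hydroxylase known for its part in defence against aphids and fungi, measured 49.2, 32.3 and 28.3 FPKM in nid1 against 28.8, 39.8 and 35.5 FPKM in WT. The lowest and the highest value were both nid1 libraries. The means were 36.6 ± 11.1 FPKM in nid1 and 34.7 ± 5.55 FPKM in WT (log2 fold change 0.047, SE 0.22, limma adjusted p = 1.00). Without nid1 replicate 1 the log2 fold change was -0.18 (limma adjusted p = 1.00).

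**Figure D2:**
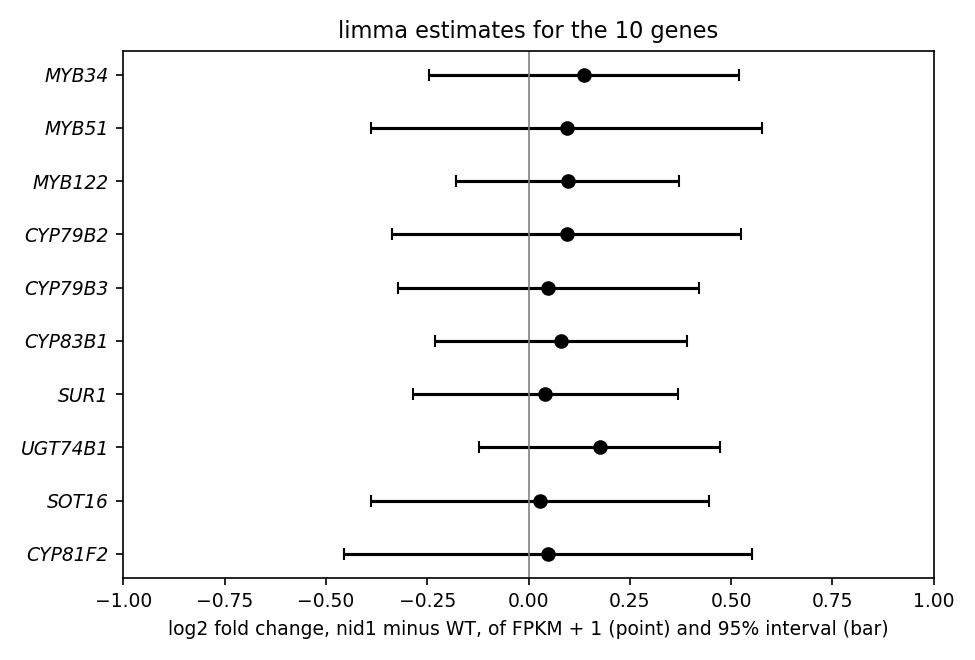
limma log2 fold change of nid1 over WT (point) with its 95% interval (bar) for each of the 10 genes, on log2(FPKM + 1). Every interval includes 0, and the lowest and highest limits are -0.46 for CYP81F2 and 0.58 for MYB51.

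Among themselves the 10 genes did not vary as a block. In nid1 replicate 1 MYB51 stood 0.54 and CYP81F2 0.48 above their own means on the log2(FPKM + 1) scale, the largest deviations of any gene and library, while CYP79B2 and CYP79B3 deviated by -0.23 and -0.21. In nid1 replicate 2, 8 of the 10 genes stood above their means, CYP79B2 by 0.35 and MYB34 by 0.23, while MYB51 deviated by -0.32. SOT16 deviated most in WT replicate 2, where it was 0.33 above its mean. Averaged over the 10 genes the deviations were 0.036, 0.11 and -0.023 in nid1 replicates 1, 2 and 3 and -0.083, 0.045 and -0.088 in WT replicates 1, 2 and 3. The nid1 and WT libraries overlapped in this average. None of these deviations was corrected for shifts that a library shows across genes in general. That shift, the log2 median ratio, was highest for WT replicate 2, at 0.081, followed by nid1 replicate 2 at 0.064. For the remaining libraries it ran from -0.048 (WT replicate 1) to -0.025 (nid1 replicate 3). The high values of nid1 replicate 2 therefore cannot be read as a trait of the 10 genes alone. For WT replicate 2 the average of 0.045 lay below the general shift.

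**Figure D3:**
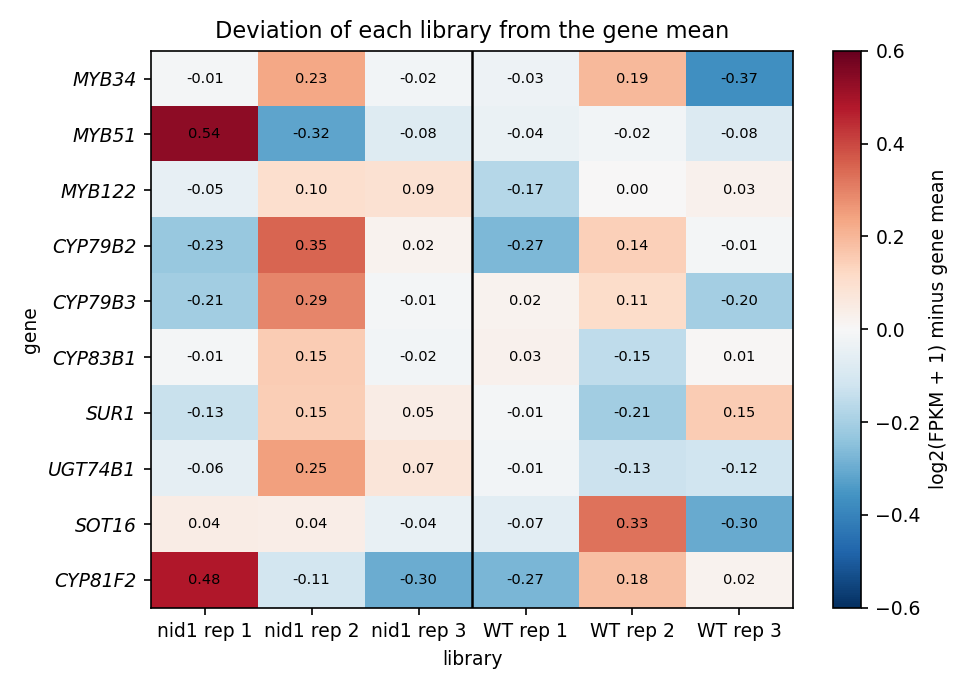
Deviation of each library from the gene's mean over all 6 libraries, in log2(FPKM + 1), with nid1 left of the line and WT right of it. MYB51 and CYP81F2 are highest in nid1 replicate 1, and CYP79B2, CYP79B3 and UGT74B1 are highest in nid1 replicate 2.

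Correlations between the 3 regulators and the 7 enzymes were computed over the 6 libraries, 21 pairs in all, after the values had been seen. None passed after Benjamini-Hochberg adjustment over the 21 pairs, with exact permutation tests, two-sided. The highest r was that of MYB34 with SOT16, with a Pearson r of 0.86 (exact p = 0.0569, adjusted p = 0.399) and a Spearman rho of 0.83 (exact p = 0.0583, adjusted p = 0.408). Without WT replicate 3 and nid1 replicate 2, the farthest from the median in MYB34, r was 0.98. The same removal took MYB34 with CYP83B1 from r = 0.029 to -0.985, so r over so few libraries is unstable. MYB34 with CYP79B3 had r = 0.81 (exact p = 0.0333, adjusted p = 0.399) and rho = 0.60 (exact p = 0.242, adjusted p = 0.622), and r was 0.61 without the same 2 libraries. For MYB122 with CYP79B2, r was 0.81 (exact p = 0.0472, adjusted p = 0.399) and rho 0.83 (exact p = 0.0583, adjusted p = 0.408). Without WT replicate 1 and nid1 replicate 2 this r was 0.53. MYB51 with CYP81F2 had r = 0.76 (exact p = 0.0764, adjusted p = 0.401) and rho = 0.54 (exact p = 0.297, adjusted p = 0.622), and r was 0.38 without nid1 replicates 1 and 2. The most negative rank correlation was MYB51 with SUR1, at rho = -0.89 (exact p = 0.0333, adjusted p = 0.408) and r = -0.63 (exact p = 0.175, adjusted p = 0.525), and r was -0.94 without nid1 replicates 1 and 2. Removing WT replicate 1 and nid1 replicate 2 likewise took MYB122 with CYP81F2 from r = -0.093 to -0.997. None of the r values without 2 libraries therefore shows that a correlation holds. With libraries rescaled by median ratios r was -0.30 for MYB51 with SUR1 and 0.57 for MYB122 with CYP79B2. Correlations within a genotype, of 3 libraries each, were not computed, and the labels name no batch.

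The balance between genes inside a library does not depend on how libraries were scaled. MYB34 made up 41.1%, 57.2% and 49.6% of the summed FPKM of the 3 MYB genes in nid1, against 49.7%, 52.8% and 43.7% in WT (49.3% ± 8.03 in nid1 and 48.7% ± 4.62 in WT, SD, n = 3 each, exact permutation p = 1, two-sided). MYB51 exceeded MYB34 in nid1 replicate 1 (51.0%) and WT replicate 3 (44.9%), and MYB122 made up 7.85% to 11.4% of the sum. The level of CYP79B2 was 2.75, 2.88 and 2.84 times that of CYP79B3 in nid1 and 2.27, 2.84 and 3.18 times in WT. On the log2 scale that ratio averaged 1.498 ± 0.0353 in nid1 and 1.45 ± 0.248 in WT (SD, n = 3 each, exact permutation p = 0.8, two-sided).

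Indole enzymes were also set against their aliphatic counterparts. The level of CYP83B1 was 2.54, 2.47 and 2.47 times that of CYP83A1, which handles aliphatic aldoximes, in nid1 and 3.36, 2.23 and 3.69 times in WT. The log2 ratio was 1.32 ± 0.0251 in nid1 and 1.60 ± 0.387 in WT (SD, n = 3 each, exact permutation p = 0.4, two-sided). WT replicate 2 fell below the nid1 values and WT replicates 1 and 3 above them, so the overlap rested on WT replicate 2. With 1 library left out, the nid1 minus WT difference ran from -0.50 (without WT replicate 2) to -0.13 (without WT replicate 3). SOT16 stood at 2.57, 2.06 and 2.09 times the sum of SOT17 and SOT18, which prefer aliphatic substrates, in nid1 and at 2.27, 3.13 and 1.79 times in WT (log2 ratio 1.16 ± 0.178 in nid1 and 1.22 ± 0.403 in WT, SD, n = 3 each, exact permutation p = 0.8, two-sided). Adjusted over these 4 measures every p was 1, and 3 against 3 libraries cannot go below 0.1. The smaller spread of the CYP79B and CYP83 ratios in nid1 stood beside a smaller spread of nid1 libraries in general. The median SD of log2(FPKM + 1) was 0.128 in nid1 and 0.220 in WT over all tested genes, and 73.8% of genes had the smaller SD in nid1. Of the 10 genes themselves, 5 had the smaller SD in nid1.

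**Figure D4:**
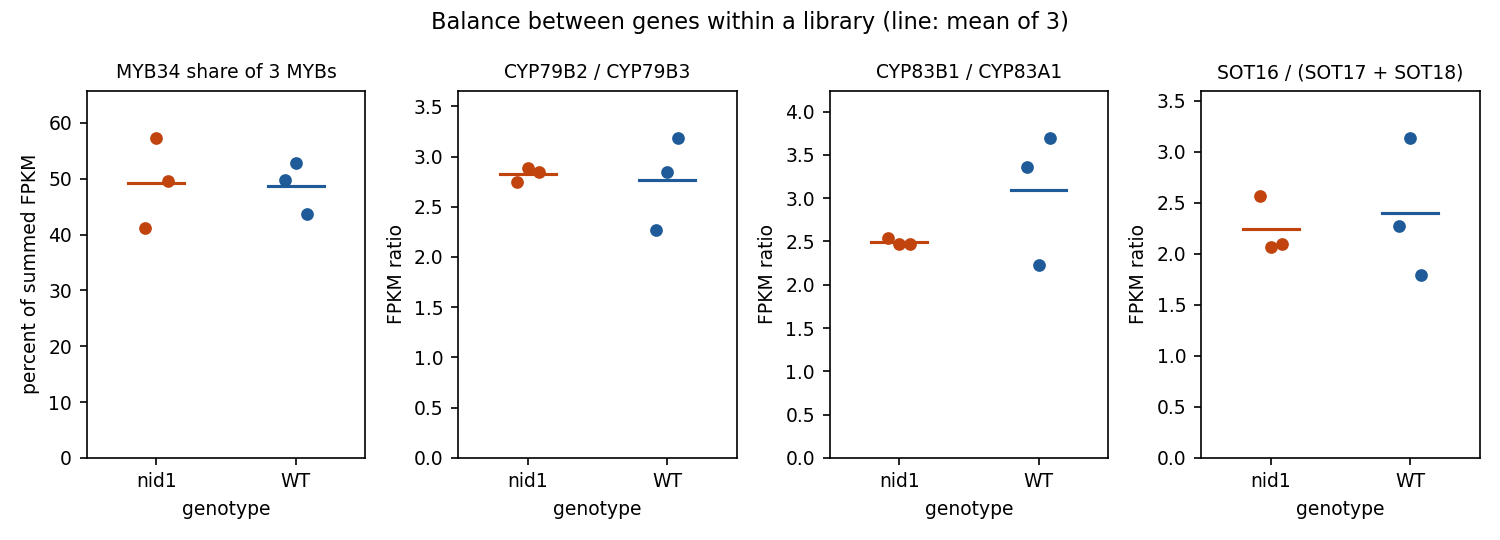
MYB34 as a percent of the summed FPKM of MYB34, MYB51 and MYB122, and 3 FPKM ratios between genes, in each library (points; line, mean) of nid1 (left) and WT (right). The nid1 points of CYP79B2 to CYP79B3 (2.75 to 2.88) and CYP83B1 to CYP83A1 (2.47 to 2.54) lie within the range of the WT points.

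The genes measured here can be told apart by short reads. None of the 10 shares a stretch of 101 bases, the read length, with a transcript of another gene in the RefSeq annotation of TAIR10.1, and none shares an exonic base with a neighbour on either strand. CYP79B2 lies at chr4:18525042-18527602 on the plus strand and CYP79B3 at chr2:9488413-9491404 on the plus strand. The genes resemble each other just before their starts. Of the 45 pairs among the windows of 250 bases upstream of the 10 genes, CYP79B2 and CYP79B3 had the longest identical run, 22 bases, and the next pair, MYB34 and CYP79B3, had 13. Allowing 1 mismatch, the run was 40 bases long. It is printed because it sets apart the paralogs of the first step, with the mismatched base in capitals.
CYP79B2, plus strand, chr4:18524947-18524986: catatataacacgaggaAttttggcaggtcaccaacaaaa
CYP79B3, plus strand, chr2:9488244-9488283: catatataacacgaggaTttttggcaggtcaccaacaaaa
The mismatch is A18T, with CYP79B2's base first and positions counted from 1 at the 5′ end of the run. The run begins 95 bases before the annotated start of CYP79B2 and 169 bases before that of CYP79B3. Of the 27443 windows of this length upstream of nuclear protein-coding genes, 2 hold the 17 bases before the mismatch and 2 hold the 22 bases after it, on either strand, and both times they are CYP79B2 and CYP79B3. The whole windows follow, 5′ to 3′, with the run in capitals.
CYP79B2, plus strand, chr4:18524792-18525041: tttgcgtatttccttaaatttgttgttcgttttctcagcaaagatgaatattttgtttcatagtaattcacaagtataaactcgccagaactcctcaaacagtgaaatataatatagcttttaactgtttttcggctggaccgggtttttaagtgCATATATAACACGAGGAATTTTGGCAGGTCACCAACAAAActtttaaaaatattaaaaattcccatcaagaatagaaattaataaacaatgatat
CYP79B3, plus strand, chr2:9488163-9488412: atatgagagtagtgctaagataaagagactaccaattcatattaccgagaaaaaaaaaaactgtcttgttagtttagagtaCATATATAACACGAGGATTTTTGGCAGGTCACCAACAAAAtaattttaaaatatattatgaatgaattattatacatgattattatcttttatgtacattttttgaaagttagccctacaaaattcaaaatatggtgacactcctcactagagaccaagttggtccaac
A shared run is a description of the sequence and names no factor that binds it.

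MYB51 (chr1:6389399-6391386, plus strand) and CYP81F2 (chr5:23187840-23189902, plus strand), the genes that stood highest together in nid1 replicate 1, were searched in the same windows. The W-box core TTGAC, bound by WRKY factors, was looked for on both strands, as was the G-box CACGTG, bound by MYC factors. W-box cores, in capitals here and written as the reverse complement where they lie on the minus strand, occur 2 times in each of these windows.
MYB51, plus strand, chr1:6389149-6389398: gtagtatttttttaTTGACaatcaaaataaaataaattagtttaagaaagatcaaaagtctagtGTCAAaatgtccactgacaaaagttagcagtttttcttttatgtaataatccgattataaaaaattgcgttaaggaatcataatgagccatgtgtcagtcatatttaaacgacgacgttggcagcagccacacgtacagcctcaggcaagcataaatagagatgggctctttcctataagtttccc
CYP81F2, plus strand, chr5:23187590-23187839: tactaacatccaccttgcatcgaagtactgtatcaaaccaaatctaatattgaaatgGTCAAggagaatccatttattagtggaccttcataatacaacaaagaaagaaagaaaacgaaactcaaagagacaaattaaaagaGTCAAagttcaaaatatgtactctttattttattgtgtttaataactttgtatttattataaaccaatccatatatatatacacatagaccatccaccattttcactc
Among the 10 genes 3 windows held a W-box core, those of MYB51, SUR1 and CYP81F2, and 44.9% of all 27443 windows hold one. The SUR1 window held 2 as well, although SUR1 deviated by -0.13 from its own mean in nid1 replicate 1. The G-box was found in 1 window, that of SUR1, and 6.49% of all windows hold one. The motifs do not overlap each other in these windows, and a match is not evidence of a binding site.

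Several of the 10 genes lie beside other glucosinolate genes. On chromosome 1, MYB122 (27855578 to 27857598, plus strand), the aliphatic sulfotransferase gene SOT18 and SOT16 (27864345 to 27865694, minus strand) lie in this order. SOT18 starts 5215 bases after MYB122, and no gene lies wholly between them. The gene AT1G74088 begins in that gap and runs into SOT18, and 151 bases separate the ends of SOT18 and SOT16. SOT17 lies 7144 bases from MYB51 with 1 gene between them. APK2, whose kinase makes the sulfate donor that SOT16 uses, lies 3436 bases from CYP79B2 with no gene between. SOT18 averaged 55.5 ± 5.91 FPKM in nid1 and 51.0 ± 4.97 FPKM in WT, below SOT16 in all 6 libraries. Its exons share 9 bases with AT1G74088.

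Genes that feed or extend the route showed no call either. In 7 related lists from textbook knowledge, limma called 0 genes, against 0.0877% of all tested genes. In these lists 3 genes had an unadjusted p under 0.05, all among the 13 tested of the aliphatic list. Over all tested genes that share was 6.21%. All 12 genes of tryptophan supply were tested, with a median log2 fold change of 0.0034 and 7 above 0. Tryptophan synthase alpha gene TSA1, the highest of them, averaged 362 ± 29.9 FPKM in nid1 and 368 ± 98.8 FPKM in WT, and the beta gene TSB1 117 ± 12.4 FPKM in nid1 and 133 ± 26.8 FPKM in WT. The indole-3-glycerol-phosphate synthase gene IGPS averaged 101.5 ± 5.68 FPKM in nid1 and 95.4 ± 22.4 FPKM in WT, and the anthranilate synthase beta gene ASB1 78.8 ± 2.25 FPKM in nid1 and 76.2 ± 13.3 FPKM in WT. PAI1, which had the smallest p of this list, averaged 6.44 ± 0.753 FPKM in nid1 and 7.18 ± 0.650 FPKM in WT (limma adjusted p = 1.00). ASB1 and PAI1 share 27.8% and 27.2% of their 101-base words with other transcripts and are uncertain singly.

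The 7 genes of glutathione conjugation and sulfate donor supply had a median log2 fold change of -0.034, with 3 above 0. The glutathione transferase genes GSTF10 and GSTF9 averaged 1000.2 ± 73.1 and 935 ± 75.0 FPKM in nid1, against 1084 ± 219 and 909 ± 188 FPKM in WT. GGP1, whose peptidase trims the glutathione conjugate, averaged 324 ± 38.9 FPKM in nid1 and 324 ± 76.8 FPKM in WT. GSH1, which starts glutathione synthesis, averaged 218 ± 3.26 FPKM in nid1 and 240.2 ± 26.2 FPKM in WT (limma adjusted p = 1.00).

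The other 8 ring-modifying genes had a median log2 fold change of 0.061, with 5 above 0. IGMT4, an indole glucosinolate O-methyltransferase gene, averaged 330.2 ± 29.4 FPKM in nid1 and 258 ± 41.2 FPKM in WT, and its groups did not overlap (limma adjusted p = 0.863). CYP81F4, which leads to the 1-methoxy product, averaged 244 ± 20.3 FPKM in nid1 and 311 ± 43.6 FPKM in WT (limma adjusted p = 0.867), with overlapping groups. An antisense gene covers 1519 of the 1722 exonic bases of CYP81F4, so its value is uncertain, and IGMT1 to IGMT4 share 101-base words among themselves. IGMT5 averaged 437 ± 74.4 FPKM in nid1 and 457 ± 90.0 FPKM in WT, and IGMT1 207 ± 15.1 FPKM in nid1 and 207 ± 37.2 FPKM in WT.

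Upstream regulators had a median log2 fold change of -0.025 over 6 genes, with 2 above 0. MYC3, a partner of the glucosinolate MYB factors, averaged 54.5 ± 4.59 FPKM in nid1 and 56.2 ± 2.91 FPKM in WT, and the DOF factor gene OBP2 37.3 ± 0.794 FPKM in nid1 and 36.9 ± 1.53 FPKM in WT. WRKY33, a factor of defence and camalexin synthesis, averaged 58.4 ± 9.01 FPKM in nid1 and 64.8 ± 5.42 FPKM in WT (limma adjusted p = 1.00). MYC2 averaged 30.3 ± 5.09 FPKM in nid1 and 31.7 ± 4.62 FPKM in WT, but 3241 of its 3289 exonic bases lie opposite exons of another gene.

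Among 7 genes of transport and PEN2-dependent activation the median was 0.042, with 6 above 0. The myrosinase gene PEN2 averaged 173 ± 12.6 FPKM in nid1 and 171 ± 19.6 FPKM in WT, and the exporter gene PEN3 171 ± 8.88 FPKM in nid1 and 171 ± 49.7 FPKM in WT. GSTU13, of the same activation route, averaged 202 ± 33.0 FPKM in nid1 and 198 ± 38.4 FPKM in WT. The glucosinolate importer gene NPF2.11 (GTR2) averaged 97.4 ± 8.38 FPKM in nid1 and 105 ± 7.24 FPKM in WT, and the phytochelatin synthase gene PCS1 90.8 ± 4.74 FPKM in nid1 and 82.3 ± 6.77 FPKM in WT (limma adjusted p = 1.00).

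Other branches from indole-3-acetaldoxime, 8 genes that include later steps, had a median of 0.019, with 5 above 0. CYP71A12, which makes indole-3-acetonitrile, measured 70.4, 135 and 111 FPKM in nid1 against 41.0, 153 and 139 FPKM in WT, so replicate 1 was lowest in both genotypes, as it was for CYP79B2. The camalexin gene CYP71B15 (PAD3) averaged 53.4 ± 14.99 FPKM in nid1 and 53.7 ± 21.8 FPKM in WT, and CYP71A13 3.99 ± 1.52 FPKM in nid1 and 2.42 ± 0.742 FPKM in WT (limma adjusted p = 0.912). The nitrilase gene NIT1 averaged 822 ± 104 FPKM in nid1 and 833 ± 251 FPKM in WT, and NIT2 77.2 ± 3.12 FPKM in nid1 and 91.8 ± 30.9 FPKM in WT.

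The aliphatic list held the largest fold change of the 7 lists. Of its 15 genes 13 passed the filter, all above 0, with a median of 0.19, and 3 of them had groups that did not overlap. Over all tested genes 50.0% lay above 0 and 10.3% had groups that did not overlap. CYP79F1, an aliphatic counterpart of CYP79B2, measured 16.6, 21.4 and 20.6 FPKM in nid1 against 9.41, 10.4 and 7.14 FPKM in WT. It was not called (log2 fold change 1.04, limma adjusted p = 0.127). CYP79F2 of the same list, at a higher level, averaged 42.5 ± 5.45 FPKM in nid1 and 39.7 ± 8.08 FPKM in WT. Its groups overlapped (log2 fold change 0.11), so the CYP79F1 value does not stand for both genes. CYP83A1 averaged 91.2 ± 7.26 FPKM in nid1 and 72.0 ± 15.1 FPKM in WT, and BCAT4, the aminotransferase that starts methionine chain elongation, 203 ± 11.7 FPKM in nid1 and 179 ± 32.1 FPKM in WT. MAM3, of the same elongation, averaged 145 ± 12.3 FPKM in nid1 and 139.6 ± 3.99 FPKM in WT, and GSTU20 118 ± 8.12 FPKM in nid1 and 105 ± 23.2 FPKM in WT. The difference between the indole and the aliphatic genes was tested only through the CYP83 and SOT ratios given above.

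**Figure D5:**
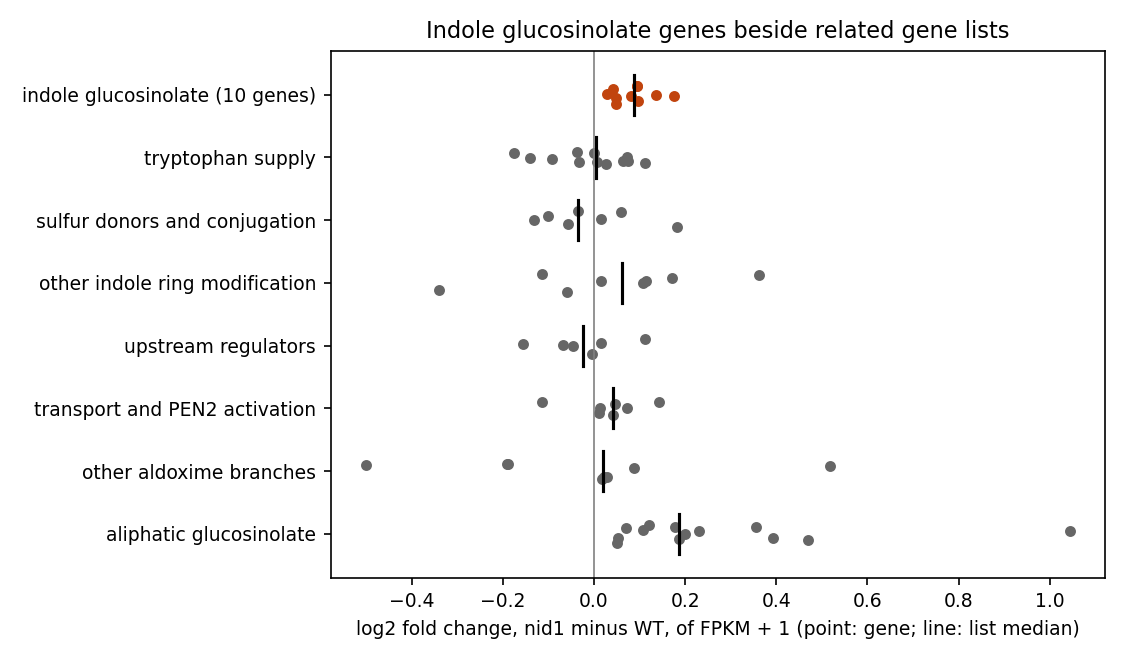
limma log2 fold change of nid1 over WT for each tested gene (points) and its list's median (lines), for the 10 indole glucosinolate genes and 7 related lists. The 10 genes lie between 0.028 and 0.18, and the farthest point is CYP79F1 of the aliphatic list at 1.04.

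The genes whose pattern over the 6 libraries was most like the mean of the 10 were ENH1 (AT5G17170), PDE334 (AT4G32260), CcdA (AT5G54290), AT5G11580 and AT3G55070, with Pearson r between 0.984 and 0.992 on log2(FPKM + 1). By design these were the 5 highest r of the 15182 genes compared, of which 290 had r above 0.9. Over only 6 libraries r is imprecise. Leaving out any 1 library kept 0 to 2 of these 5 genes among the top 5.

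Transcripts of both the shoot and the root list were detected. None of 14 shoot markers and none of 13 root markers was at 0 in all 6 libraries. Almost any transcript passes that bar, so it does not show how much RNA came from each organ. The summed FPKM of 8 photosynthesis genes on the shoot list was 337 to 627 in nid1 and 218 to 271 in WT. Groups did not overlap in 7 of the 8, against 10.3% of all tested genes, and limma adjusted p was 0.166 or more. The other 6 shoot genes, of stomata and leaf patterning, summed to 34.2 to 39.9 FPKM in nid1 and 33.6 to 34.7 FPKM in WT. The root list summed to 3115 to 3258 FPKM in nid1 and 3736 to 4376 FPKM in WT, mostly through the ER-body glucosidase gene PYK10. That gene alone measured 2752 to 2900 FPKM in nid1 and 3429 to 3993 FPKM in WT. Of the 11 root genes tested, 6 had a log2 fold change above 0, with a median of 0.021. Groups did not overlap in 2 root genes, MYB36 and PYK10, so the sum does not describe the list. The part of organ makeup in the values of the 10 genes was not tested.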

How the data were processed

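Total RNA from whole seedlings went through a stranded mRNA kit and paired-end sequencing with a read length of 101 bp, per the labels' protocols. The submitters' processing notes name bcl2fastq 2.20, Bowtie, TopHat2 2.0.13 and Cuffdiff 2.2.1. The deposited values are FPKM, 1 per gene and library, per the file headers. The sources used here state neither library scaling nor strand setting nor genome build. Of 38150 identifiers, 37932 matched locus tags of RefSeq TAIR10.1, which supplied coordinates and sequences. Groups and replicate numbers came from sample titles.

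limma 3.58.1 (R 4.3.3) was fitted to log2(FPKM + 1), with genotype as the only term and a mean-variance trend. A gene was tested where 3 or more of the 6 libraries reached 1 FPKM, which 20533 genes did. Fold changes on this scale understate those of low genes. Ratios within a library were tested by exact permutation. The fit was tested on simulated data. No read numbers were used, so depth is known only roughly: taking fragments of 200 bases, the steps of low FPKM put it at 0.716 to 0.808 in nid1 and 0.810 to 1 in WT, relative to WT replicate 1. Counting intervals are therefore not given.

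All 10 genes are named. Each related list is represented by its 4 genes of highest level, its smallest p and any call. SOT18 and CYP79F2 were added after their values were seen. The 10 genes and all lists were chosen with earlier results of these data known. Alternatives were other pseudocounts and filters, rescaling by median ratios, no variance trend, a replicate block and leaving out each library.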

Additional observations from a re-analysis of the deposited data

How the results depend on the processing

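None of the 10 genes was called by limma in any of 13 other settings (lowest adjusted p = 0.443), but directions were unstable. Leaving out 1 library at a time gave log2 fold changes of -0.013 to 0.27 for MYB34, -0.15 to 0.28 for MYB51, -0.057 to 0.23 for CYP79B2, -0.086 to 0.17 for CYP79B3, -0.051 to 0.13 for SUR1, -0.12 to 0.20 for SOT16 and -0.18 to 0.21 for CYP81F2. MYB122, CYP83B1 and UGT74B1 stayed above 0, the count above 0 was 7 to 10, and the median was 0.040 to 0.14. The nid1 minus WT difference was -3.38 to 4.65 percentage points for the MYB34 share. For log2 ratios it was -0.091 to 0.15 for CYP79B2 to CYP79B3, -0.50 to -0.13 for CYP83B1 to CYP83A1 and -0.26 to 0.14 for SOT16 to SOT17 + SOT18. The list medians were -0.12 to 0.045 for tryptophan supply and -0.080 to 0.10 for conjugation and sulfate donor supply. They were -0.027 to 0.12 for ring modification, -0.089 to 0.013 for upstream regulators and -0.011 to 0.061 for transport and PEN2 activation. For the other branches from indole-3-acetaldoxime the median was -0.28 to 0.21. The aliphatic median stayed above 0, at 0.13 to 0.24, and 0 to 2 of the 5 most alike genes were kept. The causes were not tested. Other pseudocounts, filters, rescaling and no variance trend reversed none of the 10 fold changes or the list medians. The MYB34 share and the ratios were recomputed with another pseudocount, which reversed none.

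Deviations of same-numbered libraries correlated at -0.010, 0.13 and 0.30, and those of differently numbered libraries at -0.38 to 0.22. These few values do not settle whether the numbers mark pairs, and the main fit did not take them as pairs. With a replicate block limma called 70 genes instead of 18, and 0 of the 10; all 10 stayed above 0 and the median was 0.087. Across all genes, leaving out 1 library gave 8 to 35 calls.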
